A study of Mus musculus with 6 samples.

Results

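Neurofilament and related intermediate filament genes were followed through mouse embryonic stem cells (mESCs) with and without the *Wnt6* H3K27me3 loop anchor. The 8 genes, of 55385 in the count table, were picked by name: *Nefm*, *Nefl*, *Nefh*, *Ina*, *Prph*, *Nes*, *Vim* and *Gfap*. They were chosen from earlier results of these data, with the high *Nefm* level of homozygous cells known, so their differences between homozygous cells and the other genotypes are described here with no test. The comparison of heterozygous with WT cells shares the WT libraries, and earlier results of it were known too, so the values of the 8 genes in it are likewise a description. All 8 passed the filter on low counts, which asks for at least 10 counts in at least 2 libraries. The lists of other genes set beside them below were also chosen with earlier results of these data known. Counts and p-values of listed genes are given with that limit and are no independent evidence.

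The wild-type (WT) cells were the G4 line, from a cross of 129/Sv and C57BL/6 mice, and the other cells carried a *Wnt6* heterozygous deletion (Wnt6 het del) or a *Wnt6* homozygous deletion (Wnt6 homo del) made in that line. Deletion lines were screened as individual clones, so clone and genotype cannot be told apart. All cells were kept in LIF on CD1 feeder cells, a layer usually made of fibroblasts, and the counts do not separate feeder RNA from stem cell RNA. Stranded mRNA libraries were made, with 2 per genotype in the labels. No label says whether the 2 came from separate cultures, so p-values measure the spread between these libraries, which may be technical.

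Intermediate filaments are built from rod-shaped proteins that pair into coiled coils and pack into ropes. The light, medium and heavy neurofilament proteins, encoded by *Nefl*, *Nefm* and *Nefh*, co-assemble in neurons, where they set the calibre of axons. Internexin (*Ina*) joins them in central neurons and peripherin (*Prph*) in peripheral ones. Nestin (*Nes*) is the filament protein best known from neural progenitors, vimentin (*Vim*) that of mesenchymal cells and of many cells in culture, and *Gfap* that of astrocytes.

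Exact runs of bases shared by transcripts of the 8 genes were measured. Between transcripts of any pair of them in GENCODE M21 (GRCm38) the longest exact run in common was between 12 and 35 bases. This leaves aside the bases that genes on opposite strands share. How long a run unrelated transcripts share was not measured, so these lengths do not by themselves show that the genes are related.

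The genes fall into 2 layouts and lie on 6 chromosomes. In the transcripts with the longest coding sequence, *Nefm* and *Ina* have 2 introns and *Nefl*, *Nefh* and *Nes* have 3, against 7 in *Prph* and 8 in *Vim* and *Gfap*. In GRCm38, *Nefm* (chr14:68082590-68124846, minus strand) and *Nefl* (chr14:68083863-68089095, plus strand) overlap. Their exons share 1108 bases, 32.8% of the *Nefl* exons, all through the long transcript Nefm-202. The transcript Nefm-201 (chr14:68119283-68124846) shares 0. Whether the counting used strand is not given in the sources used here, and without it reads in the shared bases could not be assigned to either gene with certainty. The other genes are at chr11:4938754-4948064 (*Nefh*, minus strand), chr19:47014698-47025327 (*Ina*, plus), chr15:99055174-99058978 (*Prph*, plus), chr3:87971078-87980451 (*Nes*, plus), chr2:13573927-13582826 (*Vim*, plus) and chr11:102887336-102900912 (*Gfap*, minus). *Ina* shares 456 exonic bases with *Nt5c2* on the other strand.

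The libraries held between 23813912 and 28964706 counts, and 3 counts corresponded to 0.102 to 0.131 CPM, where CPM scales counts to the library total with a TMM factor for its composition. Of the 55385 genes 16951 passed the filter and were fitted together over all 6 libraries with edgeR's quasi-likelihood test. A gene passed the test at a Benjamini-Hochberg adjusted p below 0.05, and was past both thresholds when its absolute log2 fold change was also above 1. The deleted gene was checked first: *Wnt6* had 11 and 13 counts in WT libraries, 6 and 4 in those of the heterozygous deletion, and 0 and 0 in those of the homozygous deletion. All 15 pluripotency markers passed the filter, as did 23 of 28 neuron genes.

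In WT mESCs vimentin RNA was the most abundant of the 8 and *Gfap* RNA the least. Levels were compared between genes per kb of the transcript with the longest coding sequence. *Vim* stood at 199 CPM per kb, followed by *Ina* at 37.6, *Nes* at 34.4, *Nefl* at 20.8, *Nefh* at 11.6, *Prph* at 10.5, *Nefm* at 2.34 and *Gfap* at 0.329 (means, n = 2). The WT libraries of neighbours in this order did not overlap. In heterozygous cells *Nes*, at 39.3 CPM per kb, stood above *Ina*, at 34.9. In homozygous cells *Prph*, at 13.1 CPM per kb, stood above *Nefh*, at 11.5, while the libraries of *Nes* (37.3 and 39.5) and *Ina* (37.7 and 39.0) overlapped. *Nefm* stayed in the last place but one, at 2.45 CPM per kb in heterozygous and 5.72 in homozygous cells. In a bulk library fewer cells of a type and less RNA per cell cannot be told apart.

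**Figure D1:**
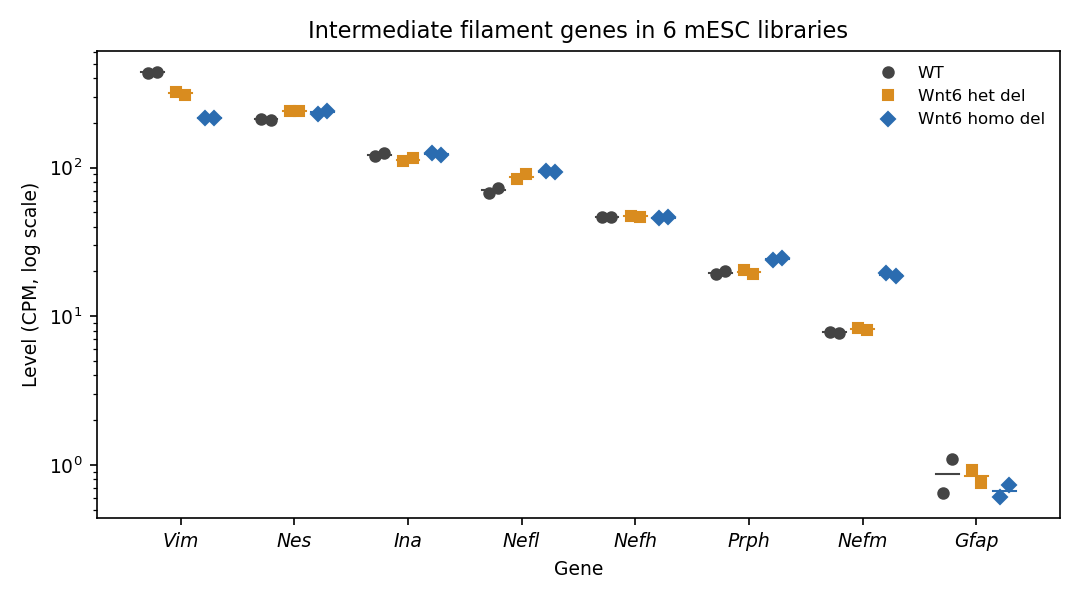
Level of each gene in CPM on a log axis, by gene and genotype (circles WT, squares heterozygous, diamonds homozygous *Wnt6* deletion). Each point is a library and each line the mean of 2; *Vim* steps down from WT through heterozygous to homozygous cells, and *Nefm* is high in both homozygous libraries (19.6 and 18.5 CPM against 7.72 to 8.28 elsewhere).

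*Nefm*, the medium chain, was the gene of the set whose RNA was raised in homozygous cells by more than the fold threshold. Its counts were 231 and 197 (WT), 206 and 214 (heterozygous) and 449 and 482 (homozygous). In CPM these were 7.86 and 7.72, 8.28 and 8.04, and 19.6 and 18.5. The homozygous libraries lay apart from the other 4, which spanned less than 1 CPM. The log2 fold change of homozygous against WT cells was 1.29 (standard error 0.0909, 95% interval 1.10 to 1.48), or 2.44-fold, and against heterozygous cells 1.22 (standard error 0.0913, 95% interval 1.03 to 1.41). In heterozygous against WT cells *Nefm* was at 0.07 (standard error 0.103, 95% interval -0.15 to 0.28).

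*Nefl*, the light chain on which neurofilaments assemble, was higher in both deletions. Its libraries stood at 67.1 and 73.2 CPM in WT, 83.8 and 90.4 in heterozygous and 95.2 and 92.7 in homozygous cells, with no overlap between the genotypes. In heterozygous against WT cells its log2 fold change was 0.31 (standard error 0.0543, 95% interval 0.20 to 0.43). In homozygous cells it was at 0.42 against WT (standard error 0.0542) and at 0.11 against heterozygous cells (standard error 0.0535, 95% interval -0.0038 to 0.22).

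The balance between both chains differed by genotype. For every 100 *Nefl* counts WT libraries held 11.7 and 10.5 *Nefm* counts, heterozygous libraries 9.88 and 8.90, and homozygous libraries 20.6 and 20.0. *Nefm* counts in the 1108 shared bases cannot be set apart in this ratio.

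*Nefh*, the heavy chain, had almost the same level in every library. It was at 46.3 and 46.5 CPM in WT, 47.2 and 46.8 in heterozygous and 45.9 and 46.2 in homozygous cells. The whole range of the 6 libraries was narrower than that of *Nefl* within WT. Its log2 fold change was 0.02 in heterozygous against WT cells (95% interval -0.09 to 0.13) and -0.01 in homozygous cells (95% interval -0.12 to 0.10).

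*Ina*, the partner of the neurofilament proteins in central neurons, ran from 111 to 126 CPM. WT libraries were at 119 and 125 CPM, heterozygous at 111 and 116 and homozygous at 126 and 122. Heterozygous libraries were the lowest, and WT and homozygous libraries overlapped. The log2 fold change of heterozygous against WT cells was -0.11 (standard error 0.0464) and that of homozygous against WT cells 0.03 (95% interval -0.07 to 0.12). Against heterozygous cells the homozygous value was 0.13 (standard error 0.0467).

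*Prph*, encoding the filament protein of peripheral neurons, was highest in homozygous cells. Its libraries were at 19.2 and 20.1 CPM in WT, 20.4 and 19.4 in heterozygous and 24.1 and 24.7 in homozygous cells. WT and heterozygous libraries overlapped and both homozygous libraries lay above them. The log2 fold change of homozygous cells was 0.31 against WT (standard error 0.0727) and 0.29 against heterozygous cells (standard error 0.0732), and that of heterozygous against WT cells was 0.02 (95% interval -0.14 to 0.17).

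*Nes*, the neural progenitor filament gene, was slightly higher in both deletions. WT libraries were at 214 and 208 CPM, heterozygous at 242 and 239 and homozygous at 229 and 242. Both deletions lay above WT and overlapped each other. In heterozygous against WT cells the log2 fold change of *Nes* was 0.19 (standard error 0.0432, 95% interval 0.10 to 0.28). In homozygous cells the log2 fold change was 0.16 against WT (standard error 0.0433) and -0.03 against heterozygous cells (95% interval -0.12 to 0.06).

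*Gfap*, the astrocyte gene, was detected in every library at a low level. WT libraries held 19 and 28 counts, heterozygous 23 and 20, and homozygous 14 and 19. WT alone spanned 0.647 to 1.10 CPM, a range that held both heterozygous libraries. The log2 fold changes were -0.04 in heterozygous (95% interval -0.75 to 0.67) and -0.35 in homozygous cells against WT (95% interval -1.10 to 0.41). At this depth a change smaller than these intervals was not detectable.

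*Vim*, the mesenchymal filament gene, had the lowest log2 fold change of the 8 in all 3 comparisons. Its libraries held 12719 and 11228 counts in WT, 8033 and 8203 in heterozygous and 4951 and 5613 in homozygous cells. In CPM they were at 433 and 440, 323 and 308, and 216 and 216. The genotypes were ordered without overlap, and each step was far wider than the gap between libraries of a genotype. Against WT, *Vim* was at -0.47 on the log2 scale in heterozygous cells (standard error 0.0410, 95% interval -0.55 to -0.38) and at -1.01 in homozygous cells (standard error 0.0418, 95% interval -1.10 to -0.93), 2.02-fold lower and next to the fold threshold. Without WT replicate 2 the homozygous value was -0.99, which is not past it. Homozygous against heterozygous cells gave -0.55 (standard error 0.0419).

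**Figure D2:**
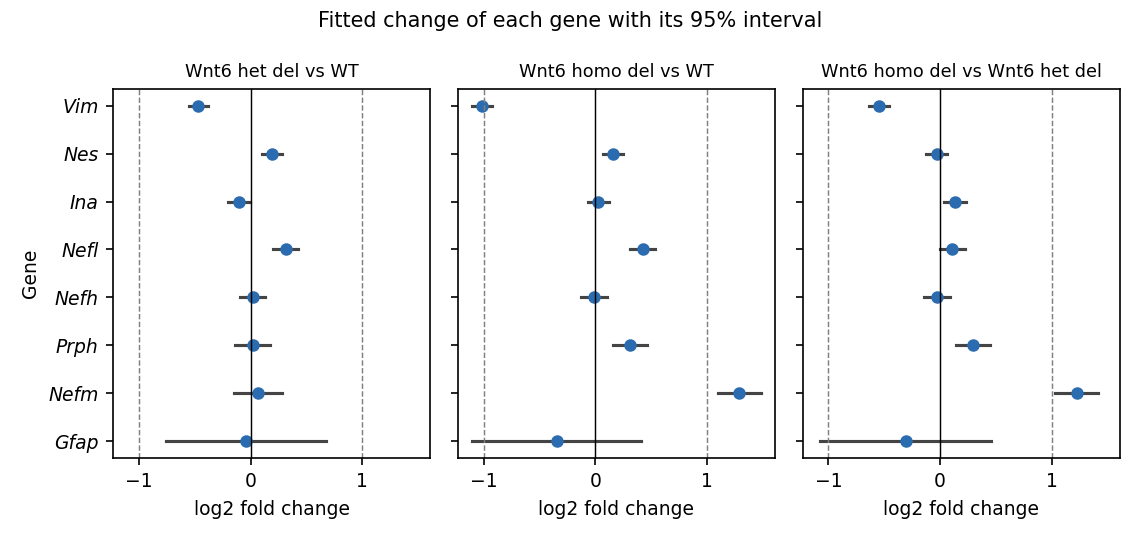
Fitted log2 fold change of each gene (points) with its 95% interval (bars), in 1 panel for each of the 3 comparisons; dashed lines mark an absolute log2 fold change of 1. *Nefm* is above 1 in both comparisons of homozygous cells (1.29 and 1.22), *Vim* is below 0 in all 3, and *Gfap* has the widest intervals.

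Markers of fibroblasts, the usual cell type of a feeder layer, moved in the same direction as *Vim*. This list, like the others below, was chosen with earlier results known, so its counts and p-values are a description. Of 32 listed markers 30 were tested (*Lum* and *Fap* were not), and none of the 32 was at 0 in all libraries. In heterozygous against WT cells 23 were lower (22 with DESeq2), where 2.91% of all genes tested were, and 0 were higher, where 2.23% were (edgeR; also 0 at an unadjusted p below 0.05 and 0 with DESeq2). In homozygous against WT cells 27 were lower (26 with DESeq2), beside 10.5% of all genes, and 0 higher, beside 10.9% (again 0 at an unadjusted p below 0.05 and 0 with DESeq2). Their median log2 fold changes were -0.49 and -1.09, with a median over all genes of 0.00 and -0.01. *Vim*, at -0.47 and -1.01, lay inside their range, with 17 and 18 of the 30 markers lower than it. *Thy1*, a fibroblast surface protein, was at -1.40 (standard error 0.0876, edgeR adjusted p = 5.61e-10) in homozygous cells, *Lox*, which cross-links collagen, at -1.37 and *Col6a1*, a collagen chain, at -1.34. Homozygous against heterozygous cells had 26 markers lower and 1 higher (*Mmp2*, a matrix protease, at 0.32, named after its value was seen), beside 12.9% of all genes in each direction. The only marker past both thresholds there was *Twist2*, a mesenchymal transcription factor, at -1.27 (standard error 0.360, edgeR adjusted p = 0.0136), and 0 were with DESeq2.

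The summed level of the fibroblast markers was 6033 and 5999 CPM in WT, 4620 and 4632 with the heterozygous and 3363 and 3336 with the homozygous deletion. For the 15 pluripotency markers the WT sums were 4564 and 4673 CPM, the heterozygous 4287 and 4331, and the homozygous 4606 and 4831. The part of the fibroblast markers in the *Vim* result was not tested. In homozygous against WT cells 1 pluripotency marker was higher (*Zfp42*, 0.22) and 1 lower (*Klf4*, -0.19), both named after their values were seen, beside 10.9% and 10.5% of all genes; DESeq2 gave 1 and 0. Against heterozygous cells 11 of the 15 were higher in homozygous cells (9 with DESeq2), beside 12.9% of all genes, at a median of 0.18. In heterozygous against WT cells 7 were lower (5 with DESeq2), beside 2.91% of all genes, at a median of -0.16.

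The 8 members were counted against the same backgrounds. In heterozygous against WT cells 0 of 8 were past both thresholds (edgeR and DESeq2, and 0 at an unadjusted p below 0.05 with the fold threshold), where 0.165% of all genes tested were. In homozygous cells 2 were past both thresholds against WT, *Nefm* and *Vim*, beside 2.14% of all genes, and 1 against heterozygous cells, *Nefm*, beside 1.39%. At an edgeR adjusted p below 0.05 alone, 2 members were higher (*Nefl* and *Nes*) and 1 lower (*Vim*) in heterozygous against WT cells, beside 2.23% and 2.91% of all genes. *Nefl* was no longer among them without WT replicate 1 (adjusted p = 0.0587), nor *Nes* without any 1 of the WT and heterozygous libraries (adjusted p from 0.0663 to 0.182). In homozygous against WT cells 4 were higher and 1 lower, beside 10.9% and 10.5%, and against heterozygous cells 3 and 1, beside 12.9% in each direction. These counts rest on results known when the genes were chosen, and nothing is read from them. The genotypes' libraries did not overlap for 6 of 8 members in heterozygous against WT cells, for 6 in homozygous against WT cells and for 7 in homozygous against heterozygous cells, while the shares among all genes were 47.7%, 57.9% and 61.4%. The median log2 fold change of the 8 was 0.02, 0.09 and 0.04 in the same order, and that of all genes 0.00, -0.01 and -0.02.

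*Vim* held the largest share of the set per length in every genotype. It held 62.8% ± 0.183 of the summed CPM per kb of the 8 genes in WT, 53.5% ± 1.10 in heterozygous and 42.2% ± 0.0723 in homozygous cells (SD, n = 2 each). *Nefm* held 0.738% ± 0.0202, 0.910% ± 0.00775 and 2.45% ± 0.0986, and *Nefl* 6.55% ± 0.312, 9.58% ± 0.627 and 11.9% ± 0.221. Shares of the other genes also rise where *Vim* falls: *Nefh*, with almost the same CPM throughout, held 3.67% in WT and 4.94% in homozygous cells. With the union of annotated exons as the length, the *Vim* share was 44.6%, 35.4% and 25.9%, so the share depended on the transcript assumed while its order across genotypes did not. The sum over the 8 genes was 314 and 320 CPM per kb in WT, 271 and 267 in heterozygous and 234 in each homozygous library. Counts of *Vim* per 100 *Nes* counts were 203 and 212 in WT, 133 and 129 with the heterozygous, and 94.6 and 89.2 with the homozygous deletion.

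**Figure D3:**
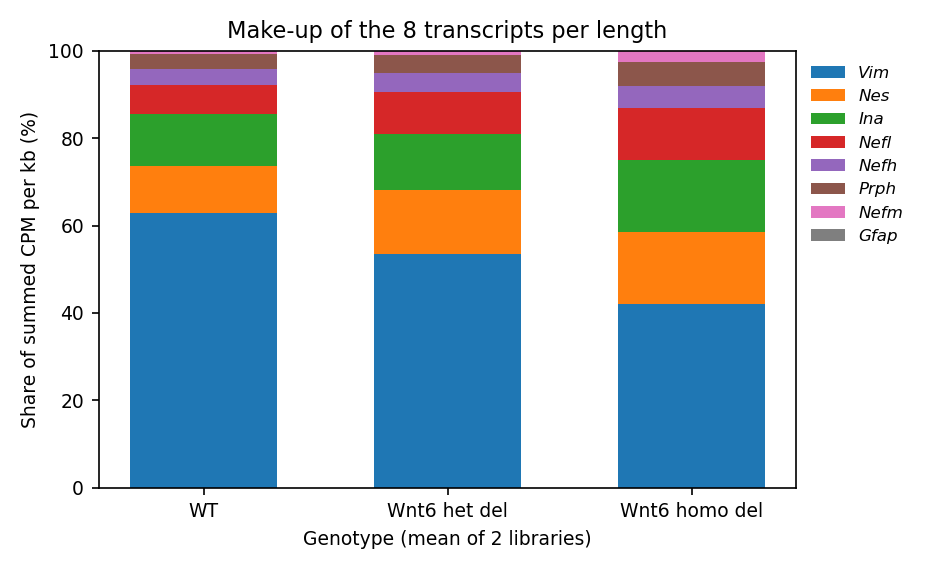
Share of each gene in the summed CPM per kb of the 8 genes, in percent (stacked bars, mean of 2 libraries), by genotype. The *Vim* block shrinks from 62.8% to 53.5% and 42.2%, and the *Nefm* block, near the top, is 0.738%, 0.910% and 2.45%.

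Other genes of the filament system were counted from lists, also chosen with earlier results known. Of 20 other intermediate filament genes 18 were tested (*Bfsp2* and *Krt23* were not). In heterozygous cells 5 were higher than in WT and 0 lower (edgeR; 1 lower at an unadjusted p below 0.05, and 4 higher and 0 lower with DESeq2), beside 2.23% and 2.91% of all genes. These were *Krt8*, *Krt18*, *Krt19* and *Krt7*, keratins of simple epithelia, and *Iffo2*, named after their values were seen. *Krt18* rose by 0.78 (standard error 0.0430) and *Krt8* by 0.75 (standard error 0.0480) on the log2 scale. In homozygous cells 5 were higher and 3 lower than in WT, beside 10.9% and 10.5% of all genes, and with DESeq2 5 and 0. *Krt19*, at 0.96 (standard error 0.0646), was the largest of the rises, with *Krt7*, *Krt8*, *Krt18* and *Lmnb1* the others. The nuclear lamin gene *Lmna* was at -0.21, *Iffo1* at -0.39 and *Iffo2* at -0.24. *Krt8* stood at 284 and 280 CPM in WT, 489 and 458 with the heterozygous and 393 and 357 with the homozygous deletion, so it was highest in the heterozygous libraries.

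Of 18 genes that phosphorylate, turn over, link or carry neurofilaments, all 18 were tested. In heterozygous cells 1 was higher than in WT, *Kif5c*, a kinesin motor chain, at 0.24, beside 2.23% of all genes, and DESeq2 called 0. In homozygous against WT cells 7 were higher and 3 lower, beside 10.9% and 10.5% of all genes and with a median of 0.02. DESeq2 gave 6 higher and 1 lower. The linkers *Dst* (standard error 0.0836, edgeR adjusted p = 0.000733) and *Macf1* (standard error 0.0679, edgeR adjusted p = 8.59e-05), large proteins that tie filaments to other parts of the cytoskeleton, were at 0.43 each. These genes and *Kif5c* were picked after their values were seen. The lower ones were *Kif5a*, a motor for neurofilament transport, at -0.36, *Plec*, a linker, at -0.23, and *Cdk5r2*, an activator of the neurofilament kinase CDK5. *Cdk5r2*, on the chromosome of *Wnt6*, went from 30 and 27 counts in WT to 16 and 17 with the heterozygous and 1 and 2 with the homozygous deletion, and was the only gene of this list past both thresholds with edgeR. With DESeq2 0 were. Counts of *Wnt6* itself were 11 and 13, 6 and 4, and 0 and 0 in the same order of genotypes. The paper speaks of genes, in the plural, inside the deletion. Whether *Cdk5r2* is among them, or lost its copies with them, was not tested.

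Neuron genes went both ways. Of 23 tested of 28, 0 were higher (4 at an unadjusted p below 0.05, 0 with DESeq2) and 1 lower in heterozygous against WT cells, *Ncam1* at -0.31, which DESeq2 did not call. The shares of all genes were 2.23% and 2.91%. In homozygous against WT cells 5 were higher and 4 lower, beside 10.9% and 10.5% of all genes, and the median over the list was -0.05. DESeq2 gave 4 higher and 2 lower. The higher ones were *Tubb3*, neuronal tubulin, at 0.45 (standard error 0.0573, edgeR adjusted p = 6.77e-06), *Map1b* at 0.41, *Stmn2* at 0.34, *Elavl2* at 0.29 and *Gap43* at 0.21. The lower ones were the adhesion gene *Ncam1* at -0.99 (standard error 0.0792, edgeR adjusted p = 1.35e-08), *Neurod1* at -0.51, *Mapt* at -0.36 and *Uchl1* at -0.16. All of these were named after their values were seen. *Dcx*, a gene of young neurons, had between 8 and 18 counts in every library, and *Rbfox3*, a gene of mature neurons, between 36 and 53. The summed level of the list was 665 and 677 CPM in WT, 683 in each heterozygous library, and 744 and 786 in homozygous libraries. Its part in the *Nefm* result was not tested.

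Of 18 neural progenitor genes 16 were tested, and in homozygous against WT cells 2 were higher and 3 lower, beside 10.9% and 10.5% of all genes (2 and 2 with DESeq2). *Sox1*, an early transcription factor of the neural plate, counted 77 and 70 in WT, 48 and 44 with the heterozygous and 168 and 176 with the homozygous deletion. It rose in homozygous cells, with a log2 fold change of 1.39 against WT (standard error 0.147, edgeR adjusted p = 6.53e-07) and of 1.98 against heterozygous cells (standard error 0.162, edgeR adjusted p = 1.75e-08), and was the only gene of the list past both thresholds. *Pax6*, a transcription factor of neural progenitors and the eye, was at 0.92 (standard error 0.0937). The lower ones, named after their values were seen, were *Pou3f1* (-0.55), *Hes1* (-0.30) and *Cdh2* (-0.27). In heterozygous against WT cells *Prom1* was higher (0.38) and *Otx2* lower (-0.37), beside 2.23% and 2.91% of all genes (1 and 1 with DESeq2). Both were named after their values were seen.

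Among 10 tested of 12 glial genes, *Cspg4*, a proteoglycan of glial progenitors that pericytes and other mesenchymal cells also make, was at -1.22 in homozygous cells (standard error 0.117, edgeR adjusted p = 1.88e-07) and the only one past both thresholds. *Gja1* was also lower (-0.15) and *Slc1a3* higher (0.24), both named after their values were seen. Beside these 2 lower and 1 higher, the shares of all genes were 10.5% and 10.9%, and DESeq2 gave 2 and 0. Of 9 genes of the REST complex, which represses neuronal genes outside neurons, *Rest* itself was at 0.22 (standard error 0.0407, edgeR adjusted p = 0.000449) and *Kdm1a* at 0.12 in homozygous against WT cells, and *Rcor2* at -0.30. They were the 3 of the 9 that passed the test there, 2 higher and 1 lower, beside 10.9% and 10.5% of all genes (1 higher and 1 lower with DESeq2). In heterozygous against WT cells only *Rcor2* did, lower at -0.24, beside 2.91% of all genes. These REST complex genes were named after their values were seen.

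**Figure D4:**
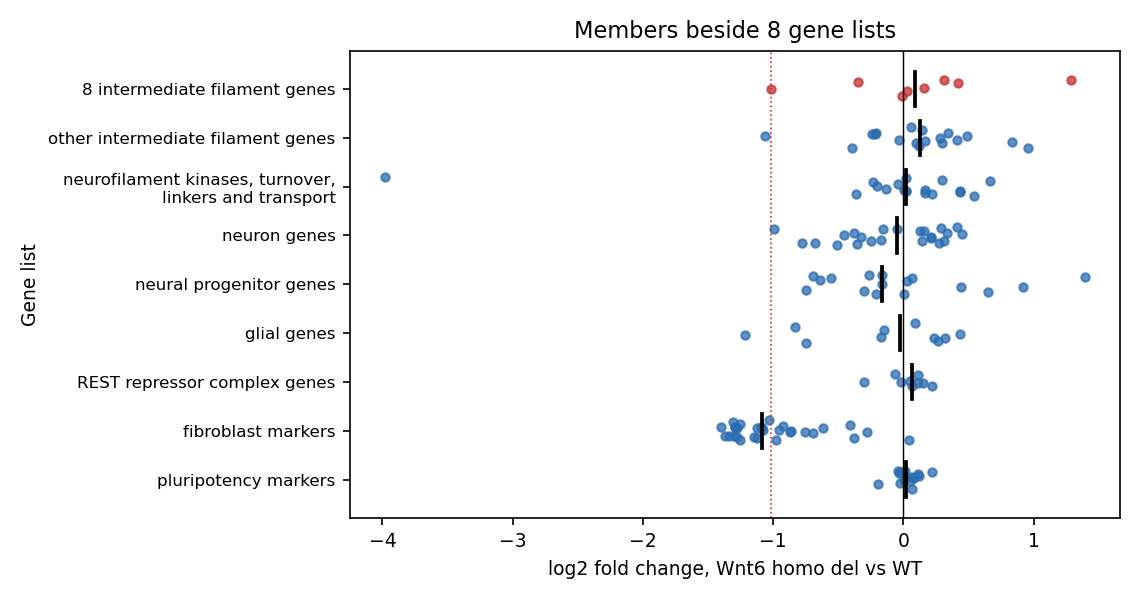
Log2 fold change of homozygous against WT cells for the 8 members (red) and for each tested gene of 8 lists (blue), 1 point per gene, with the median of each list as a black bar and the value of *Vim* (-1.01) as a dotted line. The fibroblast markers center near that line, the other lists near 0, and the point farthest left is *Cdk5r2*, with 1 and 2 counts in homozygous cells.

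The genes around *Nefm* on chromosome 14 were then measured. Within 1 Mb of the lower end of *Nefm* 9 genes were tested, *Nefm*, *Nefl* and 7 others. None of the 7 passed the test in any comparison (edgeR and DESeq2), with 1 at an unadjusted p below 0.05 in heterozygous and 2 in homozygous cells against WT. Their log2 fold changes in homozygous against WT cells ran from -1.12 to 0.14 with a median of 0.00, and the median of the 590 tested genes of chromosome 14 was 0.01. *Dock5*, the nearest of the 7 on the map by its lower end, was at 0.01 (standard error 0.0476).

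**Figure D5:**
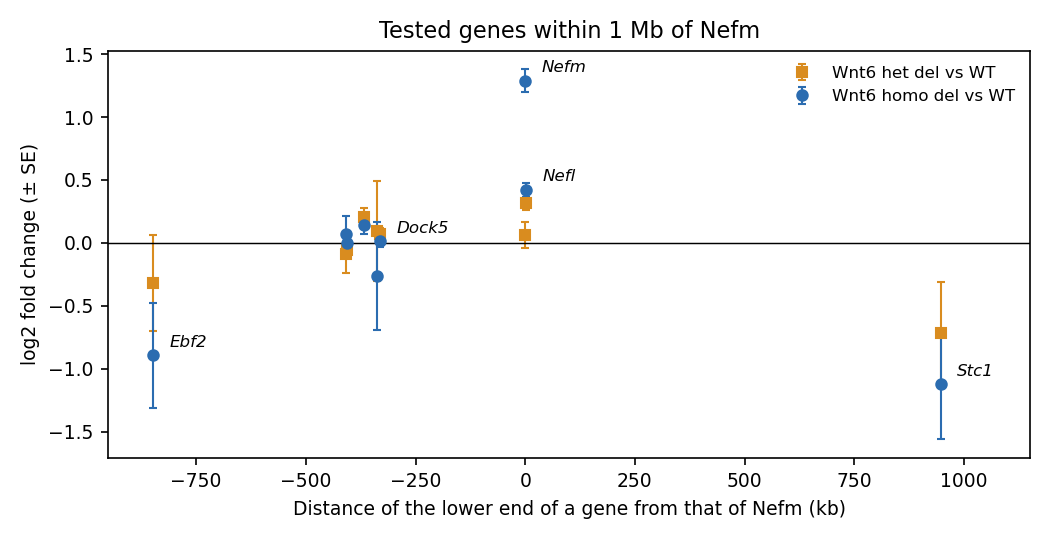
Log2 fold change (± standard error) against WT of the 9 genes tested within 1 Mb of *Nefm*, by the distance in kb between the lower ends of the genes (squares heterozygous, circles homozygous deletion). *Nefm* (1.29) and *Nefl* (0.42) stand above their neighbours in homozygous cells, and *Ebf2* and *Stc1*, at the edges, have wide errors.

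The genes whose pattern over the 6 libraries was most like that of *Nefm* or *Vim* were found among 13897 genes with a mean of at least 1 CPM. The measure was the root mean square difference of log2(CPM + 0.5), centred on the mean of each gene. For *Nefm* the nearest were *Tenm3* (0.117), *Serpina3m* (0.138), *Aass* (0.158), *Pax6* (0.167) and *Tbc1d9* (0.171), where the median of all genes was 0.579. *Tenm3* and *Tbc1d9* lie on chromosome 8, where the median over 890 tested genes was 0.39 on the log2 scale in homozygous against WT cells. For *Vim* the nearest were *Rgs16* (0.0271), *Klhdc8a* (0.0323), *Alcam* (0.0347), *Tns1* (0.0388) and *Lynx1* (0.0419), with a median over all genes of 0.424. Their log2 fold changes in homozygous against WT cells were between -1.11 and -0.96. These genes were ranked on the same 6 libraries, so their values are a description.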

How the data were processed

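For each of the 6 libraries the authors deposited a column of unnormalized read counts, 1 whole number per gene. The submitters' processing notes name Trimmomatic 0.39, STAR 2.6.1d, SAMtools 1.9, featureCounts 1.6.4 and DESeq2 1.22.2 and the builds mm10 and GRCm38. The strand setting of the counting is not given in the sources used here. The paper's methods state biological triplicates and the labels give 2 libraries per genotype; the 6 labeled libraries were used. Chi-square per degree of freedom between the 2 libraries of a genotype was 2.31 to 3.52, above sampling noise.

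TMM factors and quasi-likelihood tests, with genotype as the only term, came from edgeR 4.0.16 (limma 3.58.1, R 4.3.3). The filter asked for 10 counts in 2 or more libraries, and p-values were adjusted over all 16951. Intervals use the fit's residual spread. Alternatives were DESeq2 1.42.0 as the test, DESeq2 size factors, total counts only, 3 other filters, only the libraries compared, the replicate number as a block, and each library left out. The union of exons as gene length was added after seeing the data. Annotation and transcripts were GENCODE M21, where 55140 gene identifiers matched. Summaries were made in Python 3.11.15 with pandas 2.3.3, numpy 2.4.6, scipy 1.17.1 and matplotlib 3.10.9.

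The members and the 8 lists were chosen with earlier results of these data known. Named were all members, up to 3 genes of each list past both thresholds in a comparison, and the 5 genes nearest to *Nefm* and to *Vim*. Apart from *Wnt6*, named in advance as the check of the genotypes, every other gene was named outside this rule. Not all of them are marked so where they appear. Intervals and the limit of 3 counts cover counting error and the spread of these libraries only. A few listed genes and sequences are not reported here.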

Additional observations from a re-analysis of the deposited data

How the results depend on the processing

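*Nefm* in homozygous against WT cells had a log2 fold change of 1.23 with total counts only and 1.25 to 1.33 with 1 library left out. *Vim* there was at -0.99 without WT replicate 2, which is not past the fold threshold. In heterozygous cells the sign turned for *Prph* (-0.020 to 0.057) and for *Gfap* (-0.39 to 0.37) when libraries were left out; neither had passed the test. *Ina* in homozygous against WT cells was at -0.03 with total counts only. With the replicate block 0, 2 and 1 members were past both thresholds, as without it. The order is heterozygous against WT, homozygous against WT and homozygous against heterozygous cells. Listed genes that passed the test numbered 43, 64 and 75 with the block and 42, 67 and 77 without. Members and lists were chosen with earlier results of these data known, so nothing is read from these counts. Deviations of equally numbered libraries were not shared (correlations across genes 0.0261, -0.0944 and 0.00865), so no pairing by number showed in the counts. Whether equal numbers mark a shared culture or preparation is given in no label.

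Genes past both thresholds over the whole table numbered 28, 362 and 236 in the same order, 11, 205 and 71 with DESeq2, and 18, 266 and 124 with 10 counts asked of all 6 libraries. With no filter 49 passed in heterozygous cells. With 1 library left out they ran from 14 to 42, from 274 to 420 and from 170 to 387. Total counts only moved the share of higher genes among those that passed the test from 50.8% to 31.9% in homozygous against WT cells and from 50.1% to 29.4% against heterozygous cells, with shifts of the median of all genes to -0.06 and -0.09. Depth limits mainly *Gfap*, with 14 to 28 counts a library.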
